A study of Homo sapiens with 12 samples.

Results

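Glycolysis and hypoxia target genes were followed across 3 groups of human embryonic stem cells that had received different oligonucleotides. The set holds 38 genes chosen by symbol: 17 glycolytic enzymes, 4 transporters of glucose and lactate, 4 regulatory kinases, and 13 other genes known as targets of the hypoxia-inducible factors (HIF). All 38 were found among the 53717 genes of the deposited count table, and 38 of 38 passed the filter on low counts, which left 17264 genes in total.

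The cells were H9, an established human embryonic stem cell line, so the data describe 1 line. They were cultured in RSeT, a medium sold for holding such cells in a naive-type state. ASO-L1 is an antisense oligo against LINE1, an abundant family of human retrotransposons, sO-L1 is the matching sense oligo, and ASO-Ctr is an antisense oligo without a specific target. Every group, controls included, received 25 nM of a fluorescein-labelled oligo by Lipofectamine Stem, together with 0.7 uM Trans-ISRIB (a blocker of the integrated stress response), 5 uM emricasan (a caspase inhibitor) and 10 uM Y-27632 (a ROCK inhibitor). These compounds were withdrawn after 24 h, and labelled cells were sorted at 48 h. Each group had 4 libraries, numbered 1 to 4 in the titles. The labels give neither the oxygen level of the cultures nor the origin of the replicates. A p-value below therefore measures only the spread between these samples, which may be technical if they came from 1 culture.

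Glycolysis splits glucose into pyruvate in the cytoplasm. Pyruvate then enters the mitochondria or is reduced to lactate and exported. HIF is a transcription factor whose alpha subunit is marked for breakdown by oxygen-dependent prolyl hydroxylases. When oxygen is short it binds the core sequence ACGTG or GCGTG near genes for glucose uptake, glycolysis, lactate export and the removal of mitochondria. Human pluripotent stem cells are known to rely strongly on glycolysis, and the balance between glycolysis and respiration is known to differ between their naive and primed states.

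The promoters of 4 members are shown, which carry the core letters in different numbers. These 4 were chosen with their results known, so their calls and matches are no sample of the set. Each line gives the 250 bases before the RefSeq start in GRCh38.p14, read 5′ to 3′ on the gene's strand. Capitals mark ACGTG or GCGTG on either strand. A run CACGTG holds 1 match on each strand, which overlap. LDHA, which makes lactate, lies at chr11:18394313-18394562 on the plus strand and had 5 matches. PGK1, an enzyme that makes ATP in glycolysis, lies at chrX:78103998-78104247 on the plus strand and had 3. BNIP3, a mitophagy receptor, lies at chr10:131981924-131982173 on the minus strand and had 6. KDM3A, a histone demethylase, lies at chr2:86441121-86441370 on the plus strand and had 1.
LDHA: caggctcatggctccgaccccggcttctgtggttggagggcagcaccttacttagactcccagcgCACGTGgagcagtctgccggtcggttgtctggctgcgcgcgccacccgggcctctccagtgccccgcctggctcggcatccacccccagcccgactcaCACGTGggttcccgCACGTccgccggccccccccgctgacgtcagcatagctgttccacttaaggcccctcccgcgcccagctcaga
PGK1: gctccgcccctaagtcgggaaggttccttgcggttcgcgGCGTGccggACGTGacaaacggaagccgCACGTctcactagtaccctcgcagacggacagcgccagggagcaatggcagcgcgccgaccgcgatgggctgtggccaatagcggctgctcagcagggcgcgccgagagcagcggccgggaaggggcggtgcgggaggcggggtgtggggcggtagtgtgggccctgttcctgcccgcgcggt
BNIP3: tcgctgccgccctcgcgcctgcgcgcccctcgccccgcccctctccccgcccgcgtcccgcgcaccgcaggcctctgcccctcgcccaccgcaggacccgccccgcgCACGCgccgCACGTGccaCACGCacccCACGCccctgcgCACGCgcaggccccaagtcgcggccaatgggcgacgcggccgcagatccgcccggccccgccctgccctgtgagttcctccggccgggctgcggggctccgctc
KDM3A: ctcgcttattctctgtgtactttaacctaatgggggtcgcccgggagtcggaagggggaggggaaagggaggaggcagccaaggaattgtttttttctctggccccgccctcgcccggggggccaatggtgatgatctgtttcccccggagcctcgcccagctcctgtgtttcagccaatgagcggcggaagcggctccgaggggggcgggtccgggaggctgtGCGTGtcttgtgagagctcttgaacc
LDHA, BNIP3 and KDM3A were lower in ASO-L1 than in ASO-Ctr, and PGK1 was not called. Of 33 members in the RefSeq table, 20 (60.6%) held a match within these 250 bases, against 43.2% of all 35116 promoters. The median GC content was 68.4% in members and 58.0% over all promoters. A match was held by 11 of 18 members called lower in ASO-L1 against ASO-Ctr, by 3 of 4 called higher, and by 6 of 11 not called. Neither transporter in the table, SLC2A1 or SLC16A3, held one in this window. Only 1 RefSeq start per member was used, so other starts and sites beyond the 250 bases were not searched. SLC2A3, SLC16A1, BNIP3L, VEGFA and NDRG1 had no entry.

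Each library held 22.8 to 55.1 M counted reads. Levels are given in CPM, the count per 1 M reads of the library after TMM scaling. A count of 0 still allows 3 reads, which is 0.0534 to 0.128 CPM here. Such floors cover counting error only, since no molecular identifiers were counted. Members together took 1.22 to 1.48% of the counts. All 15 pluripotency markers listed were above 1 CPM in each group, and their summed level was 12965 to 13220 CPM in ASO-Ctr, 12650 to 13186 in sO-L1 and 11822 to 12135 in ASO-L1. The summed level of 12 mesoderm and endoderm markers was 90.6 to 166 CPM in ASO-Ctr, 112 to 195 in sO-L1 and 164 to 338 in ASO-L1, with 4 of 12 above 1 CPM in each group and SOX17 at 0 in both control groups. For 14 trophectoderm markers the sums were 152 to 163, 154 to 172 and 178 to 189 CPM (CDX2 at 0 in every library), and for 10 neuroectoderm markers 402 to 432, 423 to 446 and 302 to 386 CPM, in the same order of groups. The 12 fibroblast and mesenchyme markers summed to 345 to 414, 338 to 411 and 339 to 404 CPM, with LUM at 0 throughout. The ranges of the fibroblast list overlapped between groups, but of 8 tested markers 3 were called higher and 1 lower against ASO-Ctr (log2 fold changes of -0.73 to 3.66), and 3 and 2 against sO-L1 (-0.69 to 2.77). The summed ranges of the other lists moved with ASO-L1 (mesoderm and endoderm markers with some overlap), but single markers did not all follow. Against ASO-Ctr, 3 of 4 tested mesoderm and endoderm markers were called higher and 1 lower. For neuroectoderm it was 1 and 2 of 3, for pluripotency 2 and 5 of 15, and for trophectoderm 2 and 0 of 6. Over all genes tested, 21.2% were higher and 23.1% lower. The part of any of these markers in the results below was not tested. In bulk RNA, fewer cells of a type and less RNA per cell cannot be told apart. The level of LINE1 RNA itself was not analysed here, so the action of the oligo on its target was not checked.

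The first comparison asks how these genes stood with ASO-L1 against both controls. The lactate exporter SLC16A3, the mitophagy receptors BNIP3 and BNIP3L, the pyruvate dehydrogenase kinase PDK1 and the demethylase KDM3A fell most among members called, by 1.47-fold to 3.05-fold against ASO-Ctr. Most enzymes of the glycolytic chain itself changed by 1.19-fold or less or did not pass the test, and the glucose transporter SLC2A3 and enolase 2 rose. Against ASO-Ctr, edgeR's quasi-likelihood test with Benjamini-Hochberg adjustment over 17264 genes (adjusted p under 0.05) called 19 members lower, 7 higher and 12 in neither direction. Over all genes tested, 23.1% were called lower and 21.2% higher. Against sO-L1, 16 members were lower, 5 higher and 17 not called, beside 22.9% and 21.1% of all genes. In either direction 44.3% and 44% of all genes were called. The median log2 fold change of the members was -0.13 against ASO-Ctr and -0.11 against sO-L1, with -0.0028 and -0.0032 over all genes. These medians were -0.092 and -0.059 without ASO-L1 replicate 1. With 1 surrogate variable added to the model they were -0.022 and -0.014, beside -0.011 and -0.0062 over all genes. That variable was negative in every ASO-L1 library and positive in every ASO-Ctr library. It can thus take up part of the difference between these groups. Both comparisons use the same ASO-L1 libraries, so their calls are not independent.

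Counts depended on the model and on replicate 2. Without the replicate number in the model, 11 members were lower and 4 higher against ASO-Ctr, beside 17.7% and 16.4% of all genes. Against sO-L1 they were 11 and 3, beside 17.2% and 16.3%. HK1, GPI, ALDOC, PDK3, PFKFB3, PFKFB4, P4HA1, EGLN3, P4HA2, VEGFA and ADM then lost their call against ASO-Ctr, and ALDOC, SLC2A1, PFKFB3, P4HA1, EGLN3, GAPDH and VEGFA lost theirs against sO-L1. With 1 surrogate variable added, 11 were lower and 8 higher against ASO-Ctr, beside 16.9% and 14.8% of all genes, and 12 were lower and 8 higher against sO-L1, beside 18.4% and 16.5%. PFKM, ALDOA, TPI1 and ENO1 were then called higher against ASO-Ctr, and P4HA2, VEGFA and ADM lost that call. Of the 26 members called against ASO-Ctr, 16 then had a log2 fold change smaller by over 1.5 times or of the opposite sign, and against sO-L1 9 of 21 did. Without replicate 2 of all groups, 11 members were lower against ASO-Ctr and 11 against sO-L1, beside 17.5% and 17.3% of all genes.

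**Figure D1:**
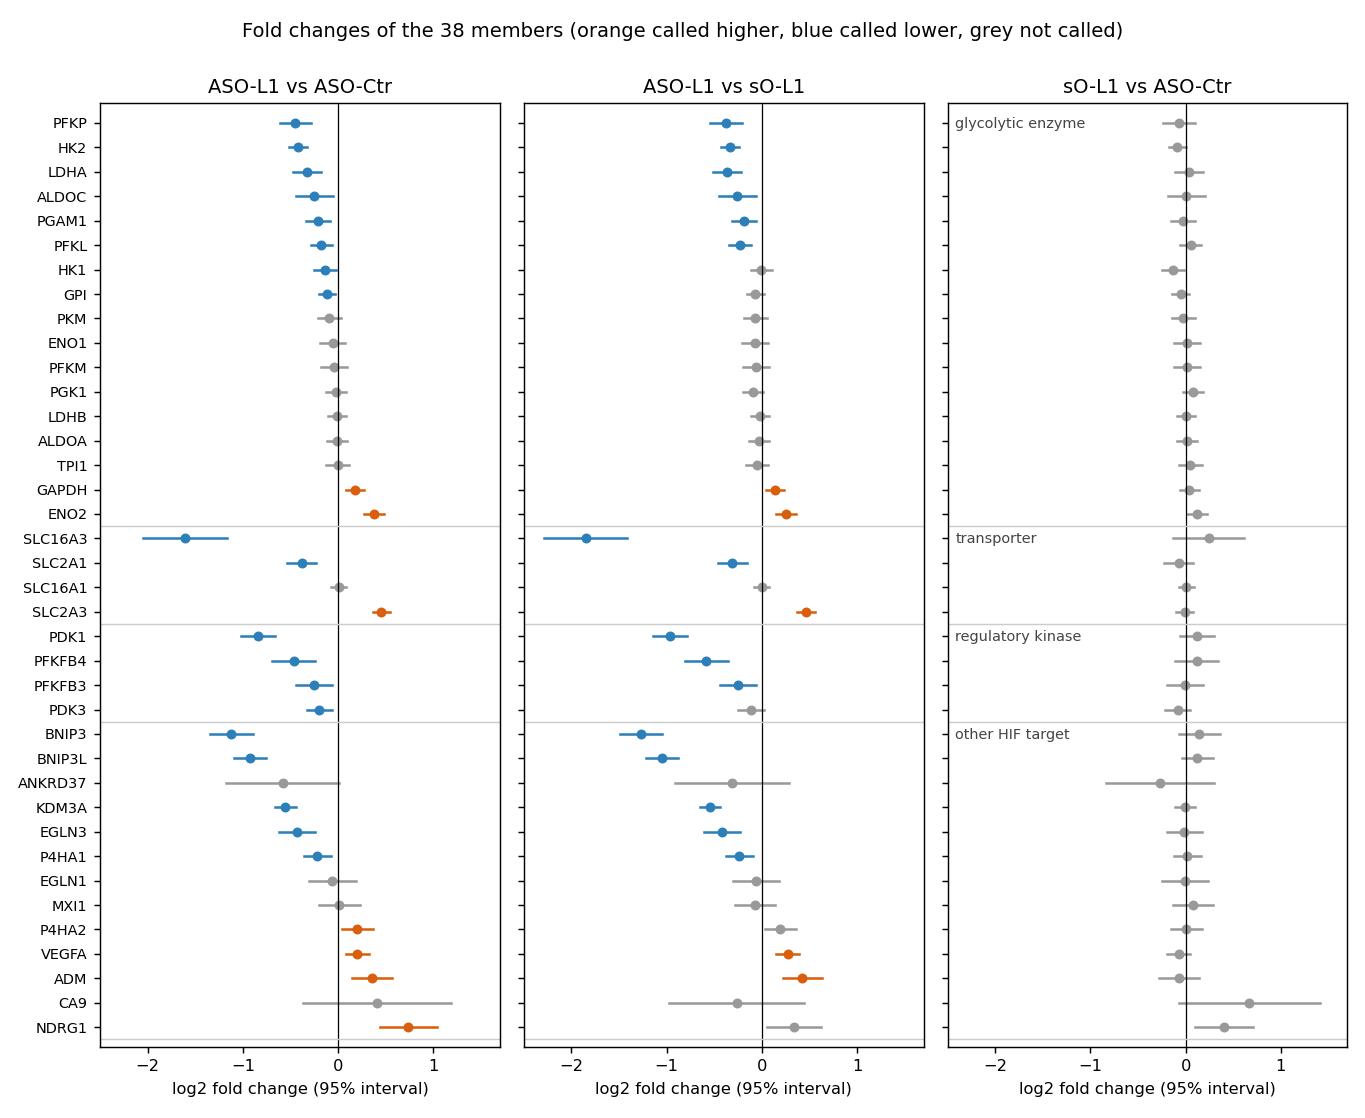
Log2 fold change of each of the 38 members (points) with its 95% interval (bars) from edgeR in the 3 comparisons, grouped by role, on a linear axis of log2 units. Blue marks members called lower, orange those called higher and grey those not called; SLC16A3 lies farthest left in both ASO-L1 panels, at -1.61 and -1.85, and all 38 points of the comparison of the controls are grey.

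The transporters went in opposite directions. SLC16A3 (MCT4) exports lactate from cells with high glycolysis. It stood at 18.4, 28.0, 6.61 and 3.80 CPM in ASO-Ctr replicates 1 to 4, at 19.1, 33.4, 8.21 and 5.20 in sO-L1, and at 3.46, 7.23, 2.71 and 3.07 in ASO-L1. Replicates 1 and 2 were high in both control groups, and the groups overlapped because ASO-L1 replicate 2 lay above replicates 3 and 4 of ASO-Ctr. The fold was 3.05 lower against ASO-Ctr (log2 fold change -1.61, SE 0.21, edgeR adjusted p = 1.03e-05) and 3.61 lower against sO-L1 (-1.85, SE 0.20, adjusted p = 2.01e-06). The difference was -2.39, -1.94, -1.27 and -0.30 on the log2 scale in replicate numbers 1 to 4, so it was small where the control was already low. SLC2A3 (GLUT3), a high-affinity glucose transporter, stood at 514, 538, 536 and 517 CPM in ASO-Ctr, at 535, 514, 530 and 509 in sO-L1, and at 697, 666, 810 and 720 in ASO-L1. All 4 ASO-L1 libraries lay above all 8 controls. The fold was 1.37 higher against ASO-Ctr (log2 0.46, SE 0.04, edgeR adjusted p = 5.9e-07) and 1.38 higher against sO-L1 (0.47, SE 0.04, adjusted p = 4.61e-07).

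SLC2A1 (GLUT1), the widespread basal glucose transporter, stood at 171, 186, 141 and 118 CPM in ASO-Ctr, 156, 180, 135 and 114 in sO-L1, and 109, 126, 118 and 111 in ASO-L1. The controls of replicate numbers 1 and 2 were the high ones, and the groups overlapped. It was 1.30-fold lower against ASO-Ctr (log2 -0.38, SE 0.07, edgeR adjusted p = 0.000392) and 1.24-fold lower against sO-L1 (-0.31, SE 0.07, adjusted p = 0.00216). SLC16A1 (MCT1), which carries lactate and pyruvate either way, was at 677 ± 35.9, 680 ± 26.9 and 679 ± 33.3 CPM (SD, n = 4) in ASO-Ctr, sO-L1 and ASO-L1. Its interval of fold against ASO-Ctr ran from 0.950 to 1.06. Per kilobase of exon, SLC2A3 was the more abundant glucose transporter in ASO-Ctr, at 85.4 ± 1.98 CPM per kb against 32.6 ± 6.46 for SLC2A1. In ASO-L1 the levels were 117 ± 10.1 and 24.6 ± 1.64 CPM per kb. The lactate carriers stood at 127 ± 6.76 CPM per kb for SLC16A1 and 1.58 ± 1.24 for SLC16A3 in ASO-Ctr. These lengths come from GENCODE v29, and the annotation behind the counts is not stated by the labels or files. They merge all annotated exons of a gene and can exceed the transcript expressed. Levels per kilobase thus compare different genes only roughly.

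**Figure D2:**
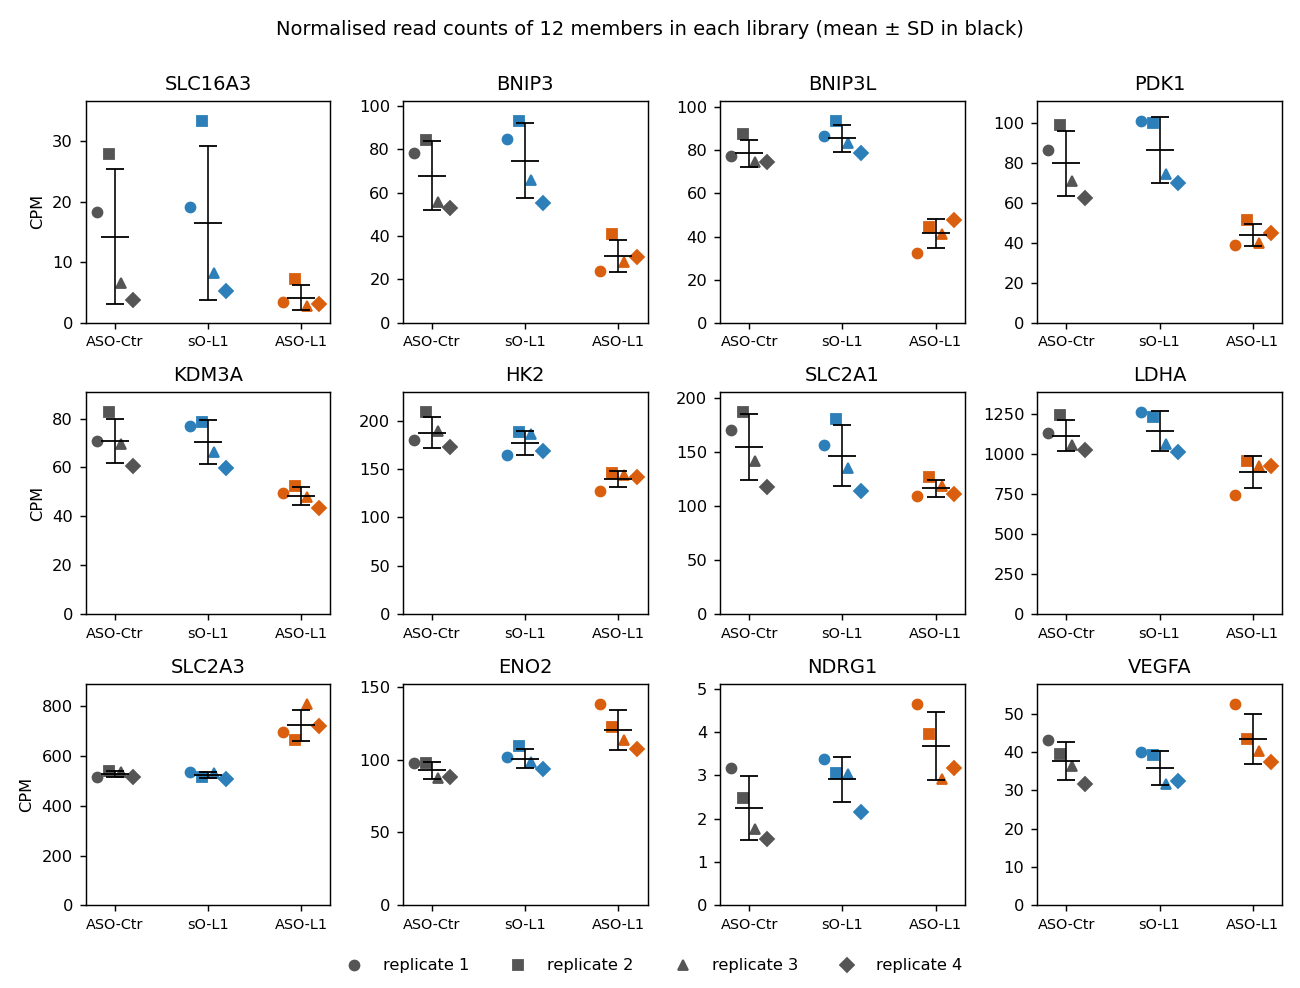
Normalised read count (CPM, linear axes from 0) of 12 members in each of the 12 libraries by group, with a symbol for each replicate number and the mean ± SD of 4 libraries in black. BNIP3, BNIP3L, PDK1, KDM3A, HK2 and LDHA show every ASO-L1 library below every control, SLC2A3 shows every ASO-L1 library above them, and SLC16A3 shows replicates 1 and 2 of the controls far above replicates 3 and 4.

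Among the 17 glycolytic enzymes, 8 were lower, 2 higher and 7 not called against ASO-Ctr, and 6, 2 and 9 against sO-L1. Of all genes tested, 23.1% were lower and 21.2% higher against ASO-Ctr, and 22.9% and 21.1% against sO-L1. Without the replicate number in the model, 5 were lower against ASO-Ctr, beside 17.7% of all genes. The model with 1 surrogate variable had 3 lower and 6 higher against ASO-Ctr, and 4 and 5 against sO-L1. Of all genes it had 16.9% lower and 14.8% higher against ASO-Ctr, and 18.4% and 16.5% against sO-L1. The median log2 fold change of the 17, with the replicate number in the model, was -0.09 and -0.07. The larger falls lay at the entry steps and at the last one. HK2, the hexokinase isoform that HIF induces, stood at 180, 209, 190 and 173 CPM in ASO-Ctr, 165, 188, 186 and 169 in sO-L1, and 128, 146, 144 and 142 in ASO-L1. All 4 ASO-L1 libraries were below the 8 controls. It was 1.34-fold lower against ASO-Ctr (log2 -0.42, SE 0.04, edgeR adjusted p = 1.18e-06) and 1.26-fold lower against sO-L1 (-0.34, SE 0.04, adjusted p = 1.26e-05). HK1, the constitutive hexokinase, was at 203 ± 12, 185 ± 4.60 and 184 ± 14.7 CPM in ASO-Ctr, sO-L1 and ASO-L1. Its log2 fold change of -0.14 against ASO-Ctr (SE 0.05, edgeR adjusted p = 0.042) was not called by DESeq2 or in 12 of 16 fits that left out a library or replicate number, with an adjusted p of up to 0.217. Per kilobase, HK1 and HK2 were at 32.2 ± 1.90 and 31.0 ± 2.58 CPM in ASO-Ctr, and at 29.2 ± 2.34 and 23.1 ± 1.37 in ASO-L1.

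The phosphofructokinases, which commit sugar to glycolysis, differed among themselves. PFKP, the platelet-type isoform, stood at 132, 132, 113 and 116 CPM in ASO-Ctr, 125, 130, 110 and 105 in sO-L1, and 74.4, 101, 84.4 and 102 in ASO-L1. No ASO-L1 library reached the lowest control, and replicate 1 was the lowest. It was 1.36-fold lower against ASO-Ctr (log2 -0.45, SE 0.08, edgeR adjusted p = 0.000219) and 1.30-fold lower against sO-L1 (-0.38, SE 0.08, adjusted p = 0.000961). These log2 fold changes were -0.20 and -0.16 with 1 surrogate variable, both still called. PFKL, the liver-type isoform, was 1.13-fold lower against ASO-Ctr (180 ± 15.1 to 159 ± 8.47 CPM, edgeR adjusted p = 0.0144) and 1.17-fold lower against sO-L1 (adjusted p = 0.00261). Its call against ASO-Ctr was lost without ASO-Ctr replicate 1 (adjusted p = 0.0737), without replicate 2 and without replicate 3. PFKM, the muscle-type isoform, was not called, at 69.5 ± 6.81 and 67.2 ± 3.82 CPM in ASO-Ctr and ASO-L1. GPI, which turns glucose 6-phosphate into fructose 6-phosphate, was 1.09-fold lower against ASO-Ctr (edgeR adjusted p = 0.0274) and was not called against sO-L1 (adjusted p = 0.201). The GPI call was lost in 9 of the 16 fits that left out a library or replicate number.

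Transcripts for the middle of the pathway differed. ALDOA, TPI1 and PGK1 were not called in either ASO-L1 comparison, while ALDOC and PGAM1 were called lower in both. ALDOA, the main aldolase, was at 868 ± 51.4 CPM in ASO-Ctr and 858 ± 45.9 in ASO-L1. TPI1, which interconverts the triose phosphates, was at 887 ± 47.6 and 884 ± 53.4, and PGK1 at 804 ± 59.3 and 790 ± 20.4. The 95% intervals of these 3 folds against ASO-Ctr lay within 0.916 and 1.09. ALDOC, a brain-type aldolase, was 1.19-fold lower against ASO-Ctr (33.1 ± 4.03 to 27.6 ± 2.46 CPM, edgeR adjusted p = 0.0369) and 1.20-fold lower against sO-L1 (adjusted p = 0.0308), and lost the call in 10 and 6 of the 16 fits with fewer samples. PGAM1, which moves the phosphate of phosphoglycerate, was 1.16-fold lower against ASO-Ctr (346 ± 24.9 to 298 ± 20.7 CPM, edgeR adjusted p = 0.00969) and 1.14-fold lower against sO-L1 (adjusted p = 0.0205). With 1 surrogate variable the PGAM1 log2 fold change against ASO-Ctr was -0.025 (adjusted p = 0.702). The call against sO-L1 was lost in 4 of the 16 fits, those without replicate 2, sO-L1 replicate 1, sO-L1 replicate 2 or sO-L1 replicate 3 (adjusted p of up to 0.116).

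GAPDH and ENO2 rose. GAPDH, which makes NADH in glycolysis and is often used as a reference gene, stood at 1714, 1624, 1614 and 1665 CPM in ASO-Ctr, 1883, 1655, 1652 and 1613 in sO-L1, and 1755, 1915, 1899 and 1915 in ASO-L1. The lowest ASO-L1 library, replicate 1, lay above every ASO-Ctr library and below sO-L1 replicate 1. It was 1.13-fold higher against ASO-Ctr (log2 0.18, SE 0.05, edgeR adjusted p = 0.00478) and 1.10-fold higher against sO-L1 (0.14, SE 0.05, adjusted p = 0.0217). Against ASO-Ctr the adjusted p rose above 0.05 when replicate number 2 or 3 was left out of all groups, to 0.0579 and 0.0556. Against sO-L1 it was lost in 9 of the 16 fits, among them those without sO-L1 replicates 2, 3 or 4 or ASO-L1 replicates 2, 3 or 4 alone. ENO2, the neuronal enolase and a HIF target, stood at 97.8, 97.9, 87.2 and 87.8 CPM in ASO-Ctr, 102, 109, 98.4 and 93.3 in sO-L1, and 138, 123, 113 and 107 in ASO-L1. ASO-L1 lay above all of ASO-Ctr and overlapped sO-L1 only through replicate 4, which fell short of sO-L1 replicate 2. The folds were 1.30 higher (log2 0.37, SE 0.05, edgeR adjusted p = 1.3e-05) and 1.19 higher (0.25, SE 0.05, adjusted p = 0.000495). ENO1, the main enolase, was not called, at 2072 ± 123 and 1985 ± 156 CPM in ASO-Ctr and ASO-L1.

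At the end of the pathway, PKM (pyruvate kinase) was not called, at 1470 ± 60.5 CPM in ASO-Ctr and 1380 ± 120 in ASO-L1. LDHA, the lactate dehydrogenase subunit that favours making lactate, stood at 1130, 1240, 1051 and 1025 CPM in ASO-Ctr, 1258, 1232, 1062 and 1008 in sO-L1, and 739, 952, 924 and 923 in ASO-L1. All ASO-L1 libraries were below the 8 controls, and replicate 1 was the lowest. LDHA was 1.25-fold lower against ASO-Ctr (log2 -0.33, SE 0.07, edgeR adjusted p = 0.00125) and 1.29-fold lower against sO-L1 (-0.36, SE 0.07, adjusted p = 0.000527). The LDHA log2 fold changes with 1 surrogate variable were -0.11 (adjusted p = 0.0476) and -0.18. LDHB, the subunit that favours using lactate, was at 1152 ± 99.3, 1149 ± 58.8 and 1143 ± 140 CPM, and its interval of fold against ASO-Ctr ran from 0.927 to 1.06. Per kilobase of exon, LDHB was above LDHA in ASO-Ctr (386 ± 33.3 against 179 ± 15.6 CPM per kb). The same held in ASO-L1 (383 ± 46.8 against 142 ± 15.8). In CPM the ASO-Ctr means were close, at 1152 for LDHB and 1112 for LDHA. The gap there thus rests on the merged exon lengths used, 2983 and 6210 bases. GAPDH, PGK1, PGAM1, LDHA, LDHB, ENO1, TPI1 and BNIP3 have processed pseudogenes, so reads shared with near-identical copies make their levels uncertain. Removal of duplicate reads lowers the counts of abundant genes most, so levels and changes of the most abundant enzymes may be compressed.

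All 4 regulatory kinases were lower against ASO-Ctr, and 3 of 4 against sO-L1, beside 23.1% and 22.9% of all genes. PDK1 alone kept the call against ASO-Ctr without the replicate number in the model or with 1 surrogate variable. Against sO-L1, 2 of 4 were then lower. Of all genes, 17.7% and 16.9% were lower against ASO-Ctr in these 2 models, and 17.2% and 18.4% against sO-L1. PDK1 phosphorylates and shuts off pyruvate dehydrogenase, and so limits the use of pyruvate inside the mitochondria. It stood at 86.4, 99.0, 70.7 and 62.3 CPM in ASO-Ctr and at 101, 100, 74.1 and 69.8 in sO-L1. In ASO-L1 it stood at 38.9, 51.3, 40.0 and 44.8 CPM. Every ASO-L1 library was below the 8 controls. PDK1 was 1.79-fold lower against ASO-Ctr (log2 -0.84, SE 0.09, edgeR adjusted p = 8.46e-07) and 1.95-fold lower against sO-L1 (-0.96, SE 0.09, adjusted p = 2.19e-07). PDK3, a related kinase that HIF also induces, was 1.15-fold lower against ASO-Ctr (35.9 ± 5.56 to 31.0 ± 2.77 CPM, edgeR adjusted p = 0.0172) and was not called against sO-L1 (adjusted p = 0.153). The PDK3 call was lost in 5 of the 16 fits with fewer samples, most so without replicate 1 of all groups (edgeR adjusted p = 0.0982). Leaving out ASO-Ctr replicate 1, ASO-Ctr replicate 2 or ASO-L1 replicate 2 alone also lost it.

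PFKFB3 and PFKFB4 make fructose 2,6-bisphosphate, the activator of phosphofructokinase. PFKFB4 stood at 23.0, 27.5, 16.2 and 13.8 CPM in ASO-Ctr, 20.4, 29.2, 19.3 and 17.4 in sO-L1, and 12.4, 16.8, 13.4 and 14.1 in ASO-L1. ASO-L1 lay below all sO-L1 libraries and overlapped replicates 3 and 4 of ASO-Ctr. The fold was 1.38 lower against ASO-Ctr (log2 -0.47, SE 0.11, edgeR adjusted p = 0.00223) and the log2 fold change against sO-L1 was -0.58 (SE 0.11, adjusted p = 0.000338). PFKFB3 stood at 66.4, 73.8, 49.7 and 40.4 CPM in ASO-Ctr and at 49.1, 48.6, 48.6 and 41.6 in ASO-L1. The difference on the log2 scale was -0.43, -0.60, -0.03 and 0.04 in replicate numbers 1 to 4. The call against ASO-Ctr (1.19-fold lower, edgeR adjusted p = 0.0294) was lost in 4 of the 16 fits with fewer samples. It was lost most without replicate 2 of all groups (adjusted p = 0.263). Leaving out ASO-Ctr replicate 1, ASO-Ctr replicate 2 or ASO-L1 replicate 2 alone also lost it. Against sO-L1 PFKFB3 was also 1.19-fold lower (adjusted p = 0.0316), a call lost in 5 of the 16 fits.

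Among the other HIF targets, 5 were lower, 4 higher and 4 not called against ASO-Ctr, and 5, 2 and 6 against sO-L1. Of all genes tested, 23.1% were lower and 21.2% higher against ASO-Ctr, and 22.9% and 21.1% against sO-L1. Without the replicate number in the model, 3 were lower and 1 higher in each comparison. Of all genes, 17.7% were then lower and 16.4% higher against ASO-Ctr, and 17.2% and 16.3% against sO-L1. With 1 surrogate variable, 5 were lower and 1 higher against ASO-Ctr, beside 16.9% and 14.8% of all genes. BNIP3 and BNIP3L (NIX), receptors on mitochondria that mark them for autophagy, fell most among these. BNIP3 stood at 78.2, 84.4, 55.5 and 53.0 CPM in ASO-Ctr, 84.6, 93.1, 66.0 and 55.4 in sO-L1, and 23.7, 40.8, 28.1 and 30.2 in ASO-L1. The highest ASO-L1 library was below the lowest control. BNIP3 was 2.18-fold lower against ASO-Ctr (log2 -1.12, SE 0.11, edgeR adjusted p = 3.89e-07) and 2.41-fold lower against sO-L1 (-1.27, SE 0.11, adjusted p = 1.14e-07). BNIP3L stood at 77.6, 87.8, 74.4 and 74.9 CPM in ASO-Ctr, 86.8, 93.7, 83.3 and 78.7 in sO-L1, and 32.3, 44.6, 41.1 and 47.6 in ASO-L1. Again every ASO-L1 library was below the 8 controls, here with little spread among the controls. BNIP3L was 1.90-fold lower against ASO-Ctr (log2 -0.93, SE 0.08, edgeR adjusted p = 1.41e-07) and 2.07-fold lower against sO-L1 (-1.05, SE 0.08, adjusted p = 4.32e-08).

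Among member enzymes that sense or use oxygen, KDM3A, EGLN3 and P4HA1 were lower against ASO-Ctr, and only P4HA2 was called higher. KDM3A, an oxygen-dependent histone H3 lysine demethylase, stood at 70.8, 82.5, 69.4 and 60.7 CPM in ASO-Ctr, 76.9, 78.7, 66.4 and 59.6 in sO-L1, and 49.3, 52.2, 47.8 and 43.3 in ASO-L1. Each ASO-L1 library was below the lowest control. KDM3A was 1.47-fold lower against ASO-Ctr (log2 -0.55, SE 0.05, edgeR adjusted p = 2.91e-07) and 1.46-fold lower against sO-L1 (-0.54, SE 0.05, adjusted p = 3.57e-07). EGLN3, a prolyl hydroxylase that marks HIF for breakdown and is itself a HIF target, was at 21.3 ± 5.07, 21.1 ± 5.70 and 15.5 ± 1.42 CPM in ASO-Ctr, sO-L1 and ASO-L1 (1.35-fold lower against ASO-Ctr, edgeR adjusted p = 0.000885). EGLN1, the main prolyl hydroxylase, was not called, at 18.9 ± 6.03 and 17.7 ± 2.16 CPM. EGLN2, another prolyl hydroxylase, is not a member and was chosen after its values were seen. It was 1.25-fold higher against ASO-Ctr (edgeR adjusted p = 0.00364) and higher by a log2 fold change of 0.28 against sO-L1 (adjusted p = 0.00819), with every ASO-L1 library above every control. P4HA1, a subunit of the collagen prolyl hydroxylase, was 1.16-fold lower against ASO-Ctr (81.9 ± 11.5 to 70.2 ± 6.13 CPM, edgeR adjusted p = 0.0172). This call was lost in 4 of the 16 fits with fewer samples, most so without replicate 2 of all groups (edgeR adjusted p = 0.218). Leaving out ASO-Ctr replicate 2, where P4HA1 stood at 99.1 CPM, ASO-Ctr replicate 4 or ASO-L1 replicate 2 alone also lost it. P4HA2, a relative of P4HA1, was 1.15-fold higher against ASO-Ctr (11.7 ± 1.58 to 13.5 ± 2.30 CPM, edgeR adjusted p = 0.0444). It lost the call in 11 of the 16 fits with fewer samples and with DESeq2 (adjusted p = 0.0596). Against sO-L1 it was not called (edgeR adjusted p = 0.0507).

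Some HIF targets rose. NDRG1, a stress-response protein strongly induced by hypoxia in many cells, was scarce here. It stood at 3.17, 2.48, 1.76 and 1.54 CPM in ASO-Ctr, 3.38, 3.06, 3.03 and 2.16 in sO-L1, and 4.65, 3.95, 2.92 and 3.16 in ASO-L1. Replicate 1 was the highest in each group, the groups overlapped, and each ASO-L1 library was above the ASO-Ctr library of its number. NDRG1 was 1.67-fold higher against ASO-Ctr (log2 0.74, SE 0.14, edgeR adjusted p = 0.000468) and was not called against sO-L1 (0.34, SE 0.13, adjusted p = 0.0532). VEGFA, the main angiogenic growth factor, was at 37.7 ± 4.86, 35.8 ± 4.49 and 43.4 ± 6.64 CPM in the 3 groups (1.15-fold and 1.21-fold higher in ASO-L1, edgeR adjusted p = 0.00824 and 0.000921). ADM, a vasodilator peptide, was at 9.09 ± 1.85, 8.72 ± 1.39 and 11.6 ± 0.526 CPM (1.28-fold and 1.34-fold higher, adjusted p = 0.00714 and 0.00201).

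The last 3 HIF targets gave no call. CA9, a carbonic anhydrase that is often used as a marker of hypoxia, was near the limit of detection, at 0.354 ± 0.171, 0.529 ± 0.115 and 0.463 ± 0.155 CPM in the 3 groups with 193 reads over 12 libraries. Its interval of fold against ASO-Ctr ran from 0.773 to 2.27. ANKRD37, an ankyrin repeat protein, was at 1.19 ± 0.178 CPM in ASO-Ctr and 0.772 ± 0.156 in ASO-L1 with an edgeR adjusted p of 0.103, and its ASO-L1 libraries lay below all of ASO-Ctr. MXI1, a repressor that competes with MYC for its partner MAX, was at 6.59 ± 1.12 and 6.67 ± 0.790 CPM. Libraries were apart in 12 members below and 3 above ASO-Ctr, where 17% and 16.3% of all genes were, and in 9 below and 2 above sO-L1, where 16.2% and 16% of all genes were.

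**Figure D3:**
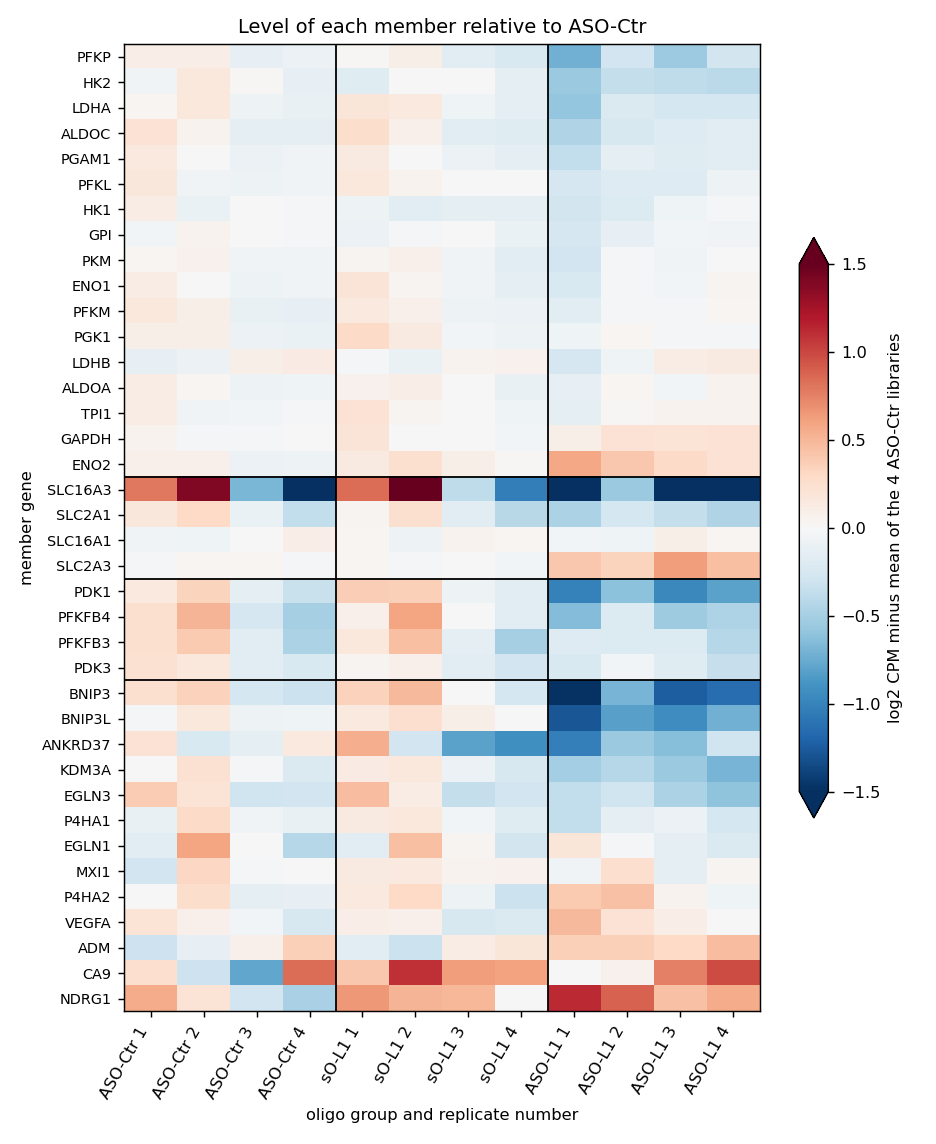
Log2 CPM of each of the 38 members (rows, grouped by role) in the 12 libraries (columns), minus the mean of the 4 ASO-Ctr libraries, with red for higher and blue for lower and colours cut off at 1.5 log2 units. BNIP3, BNIP3L and PDK1 are blue in all 4 ASO-L1 columns, SLC2A3 is red in them, and SLC16A3 changes from red in replicates 1 and 2 to blue in replicates 3 and 4 of both control groups.

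The sense oligo asks whether an oligo of the same element moves these genes on its own. Between sO-L1 and ASO-Ctr, 0 of 38 members were called in either direction by edgeR, DESeq2 or limma on the authors' log2 values. DESeq2 gave an adjusted p for only 12 of the 13 other HIF targets here. Of all genes, edgeR called 0.0695% higher and 0.22% lower, or 0.29%. The 2 groups overlapped in all 38 members, where 1.24% of all genes lay apart with sO-L1 higher and 1.99% with sO-L1 lower. Unadjusted p was under 0.05 for 3 members, HK1, ENO2 and NDRG1. For 32 of 38 members the 95% interval of the fold lay within 0.80 and 1.25. The 6 others were SLC16A3 (0.912 to 1.53), PFKFB4 (0.928 to 1.26), BNIP3 (0.954 to 1.28), CA9 (0.950 to 2.67), ANKRD37 (0.560 to 1.23) and NDRG1 (1.07 to 1.63). A fit of the 8 control libraries alone called HK1 lower and ENO2, SLC16A3, BNIP3 and BNIP3L higher in sO-L1, with log2 fold changes of -0.13, 0.12, 0.23, 0.14 and 0.12. Of all genes that fit called 1.57% higher and 2.26% lower. Leaving out replicate 1 of all groups gave a call for ENO2 (0.15), and leaving out ASO-L1 replicate 1 gave one for HK1 (-0.13).

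Members also differed between the replicate numbers that the groups share. The F-test of the replicate number in the same edgeR model called 16 of 38 members, against 13.6% of all genes. By role these were 3 of 17 enzymes (HK2, ENO2 and LDHB), 2 of 4 transporters (SLC2A1 and SLC16A3), all 4 regulatory kinases and 7 of 13 other HIF targets (BNIP3, VEGFA, EGLN1, EGLN3, P4HA2, KDM3A and NDRG1). SLC16A3 had the smallest adjusted p of the members (5.53e-06). The count was 33 of 38 without ASO-L1 replicate 1, where 28.2% of all genes were called, and it was 6 without replicate 2 (7.09% of all genes) and 10 without ASO-Ctr replicate 2 (7.98%). In ASO-Ctr the highest library of a member was replicate 1 in 16 members and replicate 2 in 18, together 34 of 38, and the same numbers were found in sO-L1. Over all genes this was so for 51.9% in ASO-Ctr and 52.6% in sO-L1. In ASO-L1 the highest library was replicate 1 in 5 members and replicate 2 in 14, together 19 of 38, beside 53.3% of all genes. This measure was chosen after the values were seen, and members that move together are not independent counts.

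The ratio of the highest to the lowest library shows how far a member spread within a group. For SLC16A3 it was 7.37 in ASO-Ctr, 6.41 in sO-L1 and 2.66 in ASO-L1. SLC2A1 gave 1.58, 1.58 and 1.15, and PFKFB3 1.83, 1.93 and 1.18. BNIP3L went the other way, with 1.18, 1.19 and 1.47. Over the 36 members with at least 20 counts in every library, the median ratio was 1.21, 1.25 and 1.22, and it was smaller in ASO-L1 than in ASO-Ctr in 20 of 36. Over all genes with such counts the medians were 1.19, 1.18 and 1.23. Over the 16 members called for the replicate number they were 1.59, 1.55 and 1.31, with a smaller ratio in ASO-L1 than in ASO-Ctr in 11 of 16, and over 11 of the other HIF targets 1.51, 1.41 and 1.32. These ratios were not tested.

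**Figure D4:**
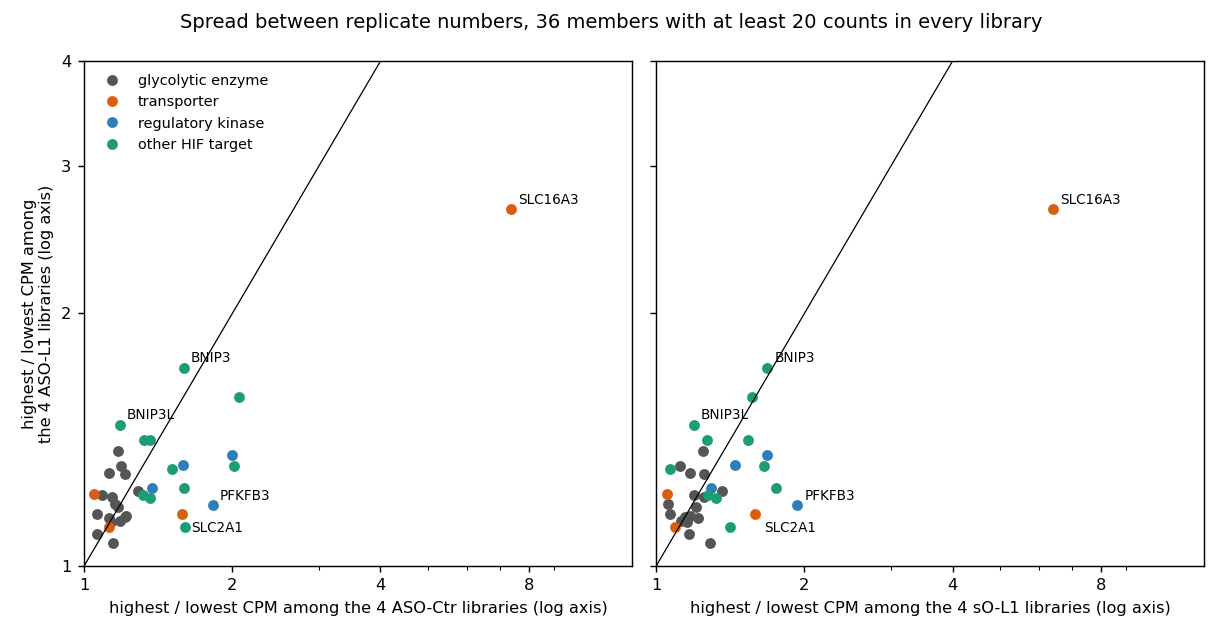
Highest divided by lowest CPM among the 4 ASO-L1 libraries (y) against the same ratio in ASO-Ctr (left) and sO-L1 (right) for 36 members, on log axes, coloured by role, with the line of equal ratios. SLC16A3 lies far to the right at 7.37 and 6.41 with 2.66 in ASO-L1, PFKFB3 and SLC2A1 lie below the line and BNIP3L lies above it.

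Differences between ASO-L1 and ASO-Ctr varied with the replicate number. Over the 19 members called lower, the median difference in log2 CPM was -0.61, -0.50, -0.19 and -0.15 in replicate numbers 1 to 4. The fall was largest in replicate 1 for 15 of them and in replicate 2 for the other 4, and 17 of 19 fell in all 4 numbers. PFKFB3 and PFKFB4 were the exceptions, at 0.04 each in replicate number 4. Among all 3984 genes called lower, the medians were -0.54, -0.36, -0.39 and -0.28. Of these genes, 60.7% had their largest fall in replicate 1, and 96.2% fell in all 4 numbers. BNIP3 and BNIP3L fell in each number, by 1.72, 1.05, 0.98 and 0.81 and by 1.26, 0.98, 0.85 and 0.65 on the log2 scale. KDM3A was the most even, at -0.52, -0.66, -0.54 and -0.49. For the 4 kinases the median was -0.67, -0.66, -0.15 and -0.04, and for all 17 enzymes -0.32, -0.10, -0.01 and 0.01. The 7 members called higher kept their direction in 4 of 4 numbers, with medians of 0.44, 0.31, 0.23 and 0.24. Among all 3668 genes called higher, 94% kept it in 4 of 4, with medians of 0.51, 0.32, 0.31 and 0.23.

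Regulators of the HIF pathway were read from a list of 18 genes, all tested, of which 3 were lower and 6 higher against ASO-Ctr. Over all genes tested, 23.1% were lower and 21.2% higher. HIF1A, the oxygen-regulated subunit, stood at 391, 415, 401 and 413 CPM in ASO-Ctr, 453, 391, 410 and 429 in sO-L1, and 304, 329, 308 and 336 in ASO-L1. All ASO-L1 libraries lay below the controls, and the difference was even over the replicate numbers, at -0.36, -0.34, -0.38 and -0.30. HIF1A was 1.27-fold lower against ASO-Ctr (log2 -0.35, SE 0.05, edgeR adjusted p = 1.89e-05), and its log2 fold change against sO-L1 was -0.40 (adjusted p = 4.16e-06). ARNT, the constant partner of HIF1A, was not called, at 50.7 ± 1.87 and 53.1 ± 3.51 CPM in ASO-Ctr and ASO-L1. EPAS1 (HIF2A) was scarce and not called, at 0.545 ± 0.311 and 0.595 ± 0.167 CPM. ARNT2 was 1.60-fold lower (13 ± 1.35 to 8.10 ± 0.993 CPM, adjusted p = 6.49e-06), and HIF3A, which gives inhibitory isoforms, was lower against ASO-Ctr (log2 -0.31, adjusted p = 0.0214) and not against sO-L1 (-0.01, adjusted p = 0.926). VHL, the part of the ubiquitin ligase that binds hydroxylated HIF, was 1.16-fold higher (75.9 ± 3.13 to 88.6 ± 14.4 CPM, adjusted p = 0.0383), by 0.57, 0.05, 0.26 and -0.03 in replicate numbers 1 to 4. CREBBP, a coactivator, was 1.45-fold higher (117 ± 5.66 to 169 ± 24.7 CPM, adjusted p = 7.77e-05). Elongin B (TCEB2), a partner of VHL, and SIAH2, a ligase for prolyl hydroxylases, were 1.19-fold and 1.27-fold higher. HIF itself is governed mainly at the protein level, which was not measured.

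A further 36 HIF targets outside the set were read for comparison. Of 35 tested, 11 were higher and 11 lower against ASO-Ctr, beside 21.2% and 23.1% of all genes, with a median log2 fold change of -0.09. Against sO-L1, 11 were higher and 12 lower, beside 21.1% and 22.9% of all genes. TMEM45A, a membrane protein, was 2.26-fold lower (10.5 ± 2.02 to 4.59 ± 1.22 CPM, edgeR adjusted p = 3.59e-06). PLOD2, a collagen lysyl hydroxylase, was 1.52-fold lower (58.1 ± 13.7 to 37.8 ± 5.06 CPM, adjusted p = 7.7e-07) and WSB1, a ubiquitin ligase subunit, 1.27-fold lower. Each of these 3 lay below ASO-Ctr in all ASO-L1 libraries. TXNIP, a glucose-induced inhibitor of thioredoxin and of glucose uptake, was 2.24-fold higher (30.9 ± 2.82 to 70.2 ± 14.9 CPM, adjusted p = 6.05e-09), and the repressor BHLHE40 2.48-fold higher (8.62 ± 2.19 to 21.4 ± 5.35 CPM, adjusted p = 1.25e-08). HIF targets thus moved in both directions in ASO-L1. The F-test of the replicate number called 16 of these 35 genes, a larger share than the 13.6% of all genes.

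The authors' deposited table of ASO-L1 against sO-L1 gives log2 fold changes of -1.99 for SLC16A3, -1.29 for BNIP3, -1.05 for BNIP3L, -0.97 for PDK1 and 0.46 for SLC2A3. Of the 38 members, the authors' deposited table has 15 lower and 5 higher at an adjusted p under 0.05, beside 16.7% lower and 16.1% higher of its 20856 genes. The authors' deposited table lists PFKFB3 at an adjusted p of 0.0709, above that threshold, where the edgeR fit gave 0.0316.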

How the data were processed

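Poly(A) RNA of sorted H9 cells was sequenced in 12 stranded libraries made from 80 to 130 ng of RNA. The authors deposited a table of raw counts from which, per the labels, duplicate reads had been removed. The tools named in the submitters' processing notes are featureCounts (Subread 1.5.0), Trim Galore 0.4.0 and TopHat2 2.0.13, with the build hg19. The annotation, and whether counting was stranded, are not stated there. The authors also deposited log2 normalized values, per the labels after a cutoff and a batch correction. Another table that the authors deposited gives the log2 fold change, p-value and adjusted p-value of ASO-L1 against sO-L1, and its other score columns were not used. No column of values was left unmapped (0).

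Counts were fitted in R 4.3.3 with edgeR 4.0.16: TMM scaling, filterByExpr with a minimum count of 10, all 12 libraries, group and replicate number in the model, quasi-likelihood F-tests, two-sided, Benjamini-Hochberg adjustment over 17264 genes, called under 0.05. Standard errors are the size of the log2 fold change over the root of F, and 95% intervals use its degrees of freedom (6 residual, prior 10.8). Differences within a replicate number are of log2 CPM with a prior count of 2. The replicate number was kept in the model because the authors' log2 table is batch-corrected. As a check of this pairing, group-centred log2 values (offset 0.5, 10549 genes whose mean count reached 200) were correlated between groups. All 12 same-number pairs of libraries exceeded 0.1 (r from 0.215 to 0.726), and 36 pairs that differed in number reached r of up to 0.560. Centring within groups of 4 lowers r between different numbers by construction. Chi-squared per gene within groups was 3.00 to 29.0, above counting error, and 0 libraries were identical. Promoters came from a RefSeq table of another build (GRCh38.p14) than the counts, and exon lengths from GENCODE v29 on GRCh38. Scripts were tested on simulated data.

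Alternatives were limma 3.58.1 on the authors' log2 values, DESeq2 1.42.0, its size factors, no filter, no replicate block, the 8 libraries compared, 1 surrogate variable (sva 3.50.0), a minimum log2 fold change of 0.25, and leaving out each replicate number or library. The members, lists and rules were chosen with earlier results of these data known. The rule for values per library takes members called in an ASO-L1 comparison with a log2 fold change of at least 0.5 in size and the member of each role with the smallest adjusted p. In other lists it takes up to 3 called genes per direction, and HIF1A, EPAS1, ARNT and VHL always; some genes that it picks are not reported here. Values per library of other members (PFKP, LDHA, GAPDH, ENO2, SLC2A1, PFKFB3) and of HIF1A were chosen after they were seen.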

Additional observations from a re-analysis of the deposited data

Results flagged for a closer look

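In each group of 4 libraries, the gap between the most extreme library and its nearest neighbour was set against the whole range. Chance flags about 1 in 20 such groups, and 9 of 114 groups (38 members in 3 groups) stood out. Replicate 1 stood apart 5 times. PFKL was high in ASO-Ctr replicate 1, at 203 CPM with the others at 171 to 174, and TPI1 was high in the same library, at 958 CPM with the others at 854 to 872. GAPDH was high in sO-L1 replicate 1 (1883 CPM, others 1613 to 1655) and low in ASO-L1 replicate 1 (1755 CPM, others 1899 to 1915). LDHA was low in ASO-L1 replicate 1, at 739 CPM with the others at 923 to 952. Replicate 2 stood apart for SLC16A1, low in sO-L1 at 640 CPM (others 689 to 698), for SLC16A3, high in ASO-L1 at 7.23 CPM (others 2.71 to 3.46), and for P4HA1, high in ASO-Ctr at 99.1 CPM (others 75.1 to 78.1). PFKFB3 was low in ASO-L1 replicate 4, at 41.6 CPM with the others at 48.6 to 49.1. The cause of these gaps was not tested.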

How the results depend on the processing

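Of 26 members called against ASO-Ctr, 16 kept the call in all 16 fits with fewer samples (1 replicate number or 1 library left out) and 12 in every fit run, and of 21 called against sO-L1, 15 and 13 did. Members called lower against ASO-Ctr numbered 19 in the main analysis, 11 to 20 over the fits with fewer samples (11 without replicate 2), 11 with no replicate block, 11 with 1 surrogate variable and 12 with a minimum log2 fold change of 0.25. Those called higher numbered 7, then 5 to 7, 8 with 1 surrogate variable (4 of them shared), 4 with no replicate block and 4 with the minimum fold. Against sO-L1, 5 were called higher, 3 with no replicate block and 8 with 1 surrogate variable. Calls over all genes moved too. Against ASO-Ctr 23.1% were lower in the main analysis and 17.5% to 23.5% over the fits with fewer samples. With 1 surrogate variable 16.9% were lower. Those higher were 21.2%, then 15.9% to 21.5%, and 14.8% with 1 surrogate variable. Against sO-L1 those higher were 21.1%, 16.3% with no replicate block and 16.5% with 1 surrogate variable. Between sO-L1 and ASO-Ctr, 0 members were called in the main analysis. A fit of the 8 libraries called 4 higher and 1 lower, beside 1.57% and 2.26% of all genes. With 1 surrogate variable 3 and 1 were called, beside 1.05% and 1.66% of all genes. Over the fits with fewer samples it was 0 to 1 in either direction. With no replicate block, so without the pairing by number, kinases lower against ASO-Ctr went from 4 to 1, enzymes lower from 8 to 5, and other HIF targets from 5 lower and 4 higher to 3 and 1, and all genes called between sO-L1 and ASO-Ctr went from 12 higher and 38 lower to 2 and 15. Of all genes, those lower against ASO-Ctr also went from 23.1% to 17.7% with no replicate block, and those higher from 21.2% to 16.4%. Members that differed between replicate numbers were 16, and 6 to 33 over the fits with fewer samples. Of all genes 13.6% so differed, and 7.09% to 28.2% over those fits. With 1 surrogate variable, log2 fold changes turned positive against ASO-Ctr for HK1 (0.0025), PFKM (0.13), ALDOA (0.12), ALDOC (0.026), TPI1 (0.17) and ENO1 (0.14), and against sO-L1 for HK1 (0.11), TPI1 (0.094) and ENO1 (0.10). The TPI1 value against ASO-Ctr ran from -0.050 to 0.089 over the fits with fewer samples, and was 0.083 without replicate 1 and 0.089 without ASO-L1 replicate 1. The surrogate variable was largest in ASO-L1 replicate 1 (-0.746) and ASO-Ctr replicate 1 (0.465). It was also negative in the other ASO-L1 libraries (-0.165, -0.216 and -0.0206) and positive in the other ASO-Ctr libraries (0.152, 0.0486 and 0.0465). In sO-L1 it ran from -0.0324 to 0.315. The variable thus differed between the oligo groups, and a model that holds it can lose part of the difference between them. A member called in neither fit was not counted as turned when its sign changed. The cause of these changes was not tested. Depth limits CA9 and ANKRD37, with 193 and 413 reads in all.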

Other observations

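Pathways next to glycolysis were read from lists in the same fit against ASO-Ctr, where 23.1% of all genes were lower and 21.2% higher. Of 12 tested genes of glycogen and gluconeogenesis, 7 were lower and 0 higher (5 not called, median log2 fold change -0.22), and against sO-L1 also 7 and 0. GYG1 (glycogenin), which primes glycogen, was 1.64-fold lower at 39.3 ± 7.26 against 64.1 ± 4.55 CPM (edgeR adjusted p = 5.36e-07). UGP2, which makes UDP-glucose, went from 685 ± 39.5 to 489 ± 36.2 CPM (1.40-fold lower, adjusted p = 8.21e-06). Both lay below ASO-Ctr in every ASO-L1 library. GYG1 fell by 1.01, 0.63, 0.65 and 0.59 on the log2 scale in replicate numbers 1 to 4.

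Of 12 tested genes for the entry of pyruvate into mitochondria and its use there, 3 were higher, 1 lower and 8 not called. MPC1, a subunit of the mitochondrial pyruvate carrier, was 1.52-fold higher (11.7 ± 1.59 to 17.7 ± 1.22 CPM, edgeR adjusted p = 6.66e-06). PDHA1 and PDHX, parts of the pyruvate dehydrogenase complex that PDK1 inhibits, were 1.22-fold and 1.21-fold higher, and all ASO-L1 libraries lay above ASO-Ctr for these 3. PC (pyruvate carboxylase) was 1.32-fold lower. Of 11 genes of the pentose phosphate pathway, 2 were higher and 4 lower. RPIA and RPE, which rearrange pentoses, were 1.30-fold and 1.19-fold higher. H6PD, which acts in the endoplasmic reticulum, was 1.49-fold lower, and PGD and PGLS 1.17-fold and 1.19-fold lower.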
